A study of Mus musculus with 32 samples.

Results

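The 16 lymphomas described here were the 8 with the highest and the 8 with the lowest level of Tnfaip3 among 30 of the 32 lymphomas of the series. They were chosen by the measured Tnfaip3 level itself: its probe set with the highest mean over all arrays was taken, D2 and D24 were left out, and the other 30 tumours were ranked. All 32 tumours came from Eµ-myc mice, in which the immunoglobulin heavy chain enhancer Eµ drives the oncogene Myc in the B lineage, and they were taken when the mice had lymphoma or looked ill. The labels name 1 group, with no treatment, no age, no tumour subtype and no normal B cells. Total RNA, either from frozen tissue or from a pellet of dissociated cells, was hybridised to 1 Affymetrix Mouse430_2 array per tumour. The labels do not say which tumours were tissue and which were cells, nor whether 1 mouse gave more than 1 tumour. All values are log2 levels, and every difference is the Tnfaip3-high minus the Tnfaip3-low mean.

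NF-kB is a family of dimeric transcription factors that inhibitor proteins hold in the cytoplasm until receptors for TNF, lymphotoxin, interleukin-1, bacterial products or antigen activate a kinase complex that marks the inhibitors for destruction. Another, slower branch processes the NFKB2 precursor and releases dimers that contain RELB. TNFAIP3 is a ubiquitin-editing enzyme that NF-kB induces and that shuts the signal off again, and it is lost in several human B cell lymphomas. Its transcript is also made by macrophages, dendritic cells, T cells and endothelium, so a level in bulk lymphoma RNA is not that of the B cells alone. In such RNA, fewer cells of a type and less RNA per cell cannot be told apart.

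Tnfaip3 was 9.23 in D30, 8.78 each in D8, D6 and D25, 8.72 in D9, 8.30 in D15, 8.13 in D18 and 7.95 in D10, the Tnfaip3-high tumours. It was 7.13 in D19, 7.04 each in D26 and D27, 6.95 in D14, 6.73 in D16, 6.64 in D29, 6.61 in D32 and 6.55 in D1, the Tnfaip3-low tumours. The means were 8.58 ± 0.42 and 6.83 ± 0.23 (SD, n = 8 each), a difference of 1.75 that the choice of tumours made and that has no test. The 14 tumours between lay in a range of only 0.51, with D4 (7.69) just outside the high set and D13 (7.18) just outside the low set. The tumours left out, D24 (10.39) and D2 (9.48), were above all 30. Its other probe set was dim, with a mean of 5.29 over all arrays, and ranking by the mean of both gave the same 8 and 8 tumours.

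**Figure D1:**
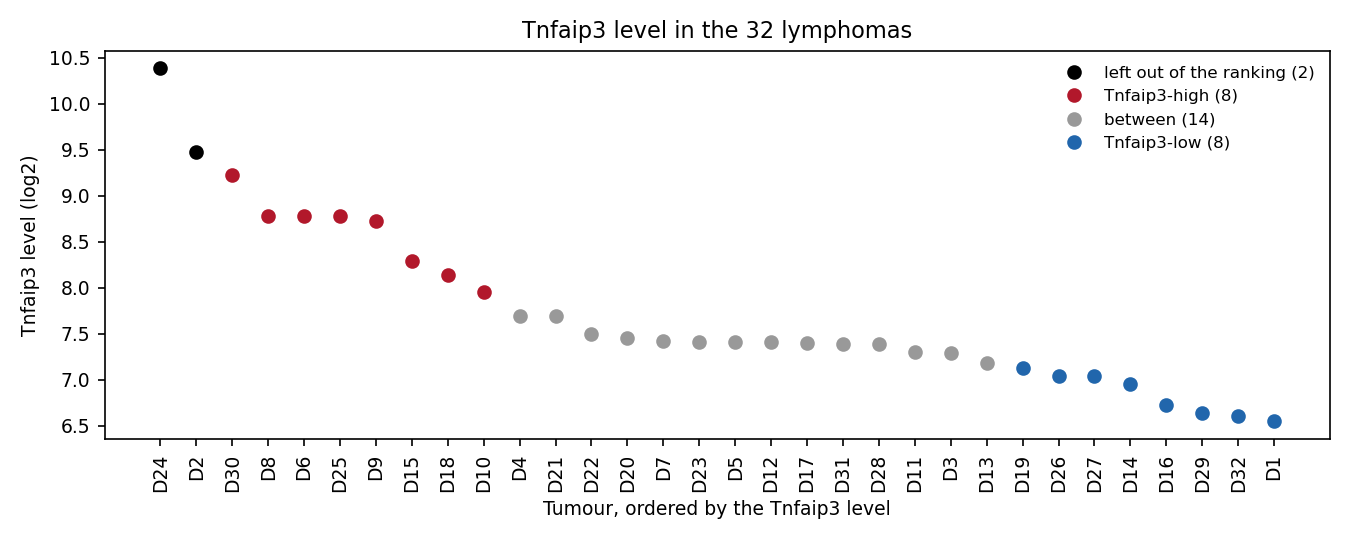
Tnfaip3 level (log2, y axis) in each of the 32 lymphomas, ordered by that level (x axis), with the tumours left out in black, Tnfaip3-high in red, those between in grey and Tnfaip3-low in blue. The high set spreads from 7.95 to 9.23, while the tumours between form a plateau that runs into the low set without a gap.

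Several NF-kB feedback genes carry, near their start, the sequence that NF-kB dimers bind. The sequences below are RefSeq promoters of build GRCm38.p6, from 250 bases before to 50 after the transcript start, 5′ to 3′ on the gene's strand. Capitals mark matches of the NF-kB consensus decamer on either strand, where overlapping matches run together. They are shown for the ranking gene, for 1 subunit and 3 inhibitors that were higher in Tnfaip3-high tumours, and for the lymphocyte cytokine gene with the largest difference among the NF-kB targets.
Tnfaip3 (chr10:19015361-19015660, minus strand): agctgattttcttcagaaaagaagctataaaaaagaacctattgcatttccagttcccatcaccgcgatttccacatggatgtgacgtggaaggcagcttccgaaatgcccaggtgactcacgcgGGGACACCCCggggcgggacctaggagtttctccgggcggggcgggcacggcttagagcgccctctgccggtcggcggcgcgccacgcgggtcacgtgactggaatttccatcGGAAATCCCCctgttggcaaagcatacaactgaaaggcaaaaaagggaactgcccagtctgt
Nfkb2 (chr19:46304487-46304786, plus strand): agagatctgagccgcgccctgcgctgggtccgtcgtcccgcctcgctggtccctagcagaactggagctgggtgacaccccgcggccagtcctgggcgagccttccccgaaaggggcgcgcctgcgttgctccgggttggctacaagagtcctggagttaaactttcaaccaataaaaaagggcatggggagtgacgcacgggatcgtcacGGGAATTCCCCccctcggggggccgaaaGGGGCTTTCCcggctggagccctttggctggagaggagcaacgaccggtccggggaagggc
Nfkbia (chr12:55492598-55492897, minus strand): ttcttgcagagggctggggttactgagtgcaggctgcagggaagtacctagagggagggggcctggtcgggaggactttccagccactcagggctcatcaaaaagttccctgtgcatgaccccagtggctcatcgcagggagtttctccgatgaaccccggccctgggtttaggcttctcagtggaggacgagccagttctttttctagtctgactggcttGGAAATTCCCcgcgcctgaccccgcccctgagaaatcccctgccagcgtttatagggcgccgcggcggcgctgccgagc
Nfkbie (chr17:45555450-45555749, plus strand): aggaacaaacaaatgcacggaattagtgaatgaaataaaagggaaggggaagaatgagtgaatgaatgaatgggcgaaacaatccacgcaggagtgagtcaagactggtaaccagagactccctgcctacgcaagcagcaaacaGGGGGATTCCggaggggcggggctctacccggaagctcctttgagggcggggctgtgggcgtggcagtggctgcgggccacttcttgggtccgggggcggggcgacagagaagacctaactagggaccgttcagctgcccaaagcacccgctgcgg
Bcl3 (chr7:19822706-19823005, minus strand): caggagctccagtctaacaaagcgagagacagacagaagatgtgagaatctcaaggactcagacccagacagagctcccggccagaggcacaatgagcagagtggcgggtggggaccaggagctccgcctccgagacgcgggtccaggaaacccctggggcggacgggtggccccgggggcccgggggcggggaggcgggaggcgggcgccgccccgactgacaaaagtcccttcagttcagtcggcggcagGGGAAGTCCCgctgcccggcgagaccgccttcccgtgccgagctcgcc
Ltb (chr17:35194257-35194556, plus strand): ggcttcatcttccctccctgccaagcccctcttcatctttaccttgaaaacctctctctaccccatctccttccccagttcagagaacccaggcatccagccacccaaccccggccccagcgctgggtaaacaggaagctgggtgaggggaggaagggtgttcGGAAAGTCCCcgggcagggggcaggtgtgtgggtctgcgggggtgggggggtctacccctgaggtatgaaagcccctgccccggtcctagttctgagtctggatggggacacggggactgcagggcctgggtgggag
Positions are counted from the transcript start. In Tnfaip3 the matches began at -125 and -12, and in Nfkb2 at -39, -38 and -11. These genes have further starts in the table, which are not shown. Of the 26 NF-kB genes that were higher, 21 were in the promoter table and 11 of these (52.4%) had a match. The share was 32.6% of 92 NF-kB genes tested, 16.2% of 439 genes that were higher, 9.64% of 384 genes that were lower, and 12.2% of 9115 genes tested. These shares count a gene where any of its starts had a match. Counted so, 9.55% of all 27025 genes in the table held the decamer. Counted by promoter, 8.46% of all 32851 did. A match is a string of letters and says nothing of binding in these tumours. The NF-kB lists were drawn up from genes known for a role in NF-kB, so a larger share there is partly built in.

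Across all genes, 542 of 11227 (4.83%) were higher and 470 (4.19%) were lower in the Tnfaip3-high tumours at an adjusted p under 0.05 (limma, two-sided, Benjamini-Hochberg over all genes, Tnfaip3 left out). The genes that rose moved further than those that fell: the median difference was 0.84 for the first and 0.45 in size for the second, and 201 rose by more than 1 while 27 fell by more than 1. In 76 genes (0.677%) every Tnfaip3-high tumour lay above every Tnfaip3-low tumour, and in 31 genes (0.276%) every one lay below. Since the tumours were picked at the ends of a measured level, each p says how a gene moved with Tnfaip3 on these arrays, and the tumours are not replicates of a treatment.

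The counts leaned on single tumours, and so did calls near the threshold. Of 94 named genes that passed, 39 lost the call without at least 1 tumour, with an adjusted p of at most 0.091. All 39 lost it without D1, 35 without D32, 32 without D26 and 0 without D10; the other 12 tumours ended between 12 and 27 of these calls each. The genes that rose numbered 353 without D6, 324 without D26, 309 without D32 and 322 without D1. The genes that fell numbered 296 without D8, 257 without D18, 180 without D26, 284 without D27, 301 without D16, 189 without D32, 170 without D1 and 1074 without D10, the Tnfaip3-high tumour nearest the middle. Salivary gland transcripts, judged by the secretory protein gene Bpifa2, were abundant in 5 of 8 Tnfaip3-high tumours (D9, D15, D18, D25 and D30), in 2 of 8 Tnfaip3-low tumours (D16 and D29) and in 4 of the 14 between. Without these, 3 tumours were left against 6, and 83 genes were higher and 4 lower. RNA quality differed little, with a median 3′ minus 5′ difference of control probe sets of 0.443 against 0.338, and the female transcript Xist was high in 4 of 8 against 3 of 8.

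The NF-kB genes leaned one way. Of 156 genes on 5 lists by role, 122 passed the filter on low values; 26 of them (21.3%) were higher and 1 was lower, with a median difference of 0.23 against -0.04 over all genes. Over all genes tested 4.83% were higher and 4.19% lower, the shares to set beside each list count here and below. In 9 of the 122 the sets did not overlap, against 0.677% of all genes with the high set above and 0.276% with it below. The call survived the loss of any single tumour for 15 of the 27. Without the tumours with salivary transcripts 9 of the 122 were higher and 0 were lower, against 83 and 4 of all 11227. The lists were drawn up with earlier results of these data known, so their direction is a description.

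Of 5 listed subunit genes 4 were tested, and 2 were higher and 0 lower; the other one is not analysed here. Relb, which forms the slow-acting dimers, ranged from 6.81 to 7.87 with a median of 7.50 in Tnfaip3-high tumours and from 5.75 to 6.66 with a median of 6.14 in Tnfaip3-low tumours. The lowest of the high set, D10, was above the highest of the low set, D14. The difference was 1.33 (SE 0.16, adjusted p = 0.000898), and it held without each tumour in turn. Nfkb2, which encodes the precursor that partners RELB, ranged from 7.47 to 8.13 (median 7.63) in the high set and from 6.72 to 7.16 (median 7.07) in the low set, again with no overlap (0.66, SE 0.09, adjusted p = 0.00154). Another probe set of Nfkb2 differed by only 0.19. D9 was the highest tumour for both genes. Rel and Rela, which encode subunits of the fast, classical branch, did not pass: Rel differed by 0.36 (adjusted p = 0.21) and Rela by 0.25 (adjusted p = 0.088). In the robust limma fit Rela was higher (0.18, adjusted p = 0.0234). The difference between the branches was not tested.

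Inhibitors of NF-kB, some of which it induces itself, gave 6 higher and 0 lower of 19 tested. Nfkbie, encoding an inhibitor that binds REL and RELA dimers, ranged from 7.29 to 9.16 (median 8.29) in Tnfaip3-high tumours and from 6.70 to 7.63 (median 7.13) in Tnfaip3-low tumours. The sets overlapped only through D30, the lowest of the high set. The difference was 1.14 (SE 0.21, adjusted p = 0.00918). Nfkbia, the main inhibitor, ranged from 11.38 to 12.42 (median 12.02) and from 11 to 11.77 (median 11.34), and rose by 0.64 (SE 0.14, adjusted p = 0.0159). D25 was the highest for both inhibitors. Bcl3, a nuclear member of the inhibitor family that can also activate genes, ranged from 5.79 to 7.0 and from 5.02 to 5.77 with no overlap (0.86, SE 0.17, adjusted p = 0.0107). The calls of the other 3, all of them lost without several single tumours, were for Nfkbiz, a nuclear inhibitor family member (0.65, adjusted p = 0.0471), for Nfkbil1, named for its likeness to inhibitors (0.42, adjusted p = 0.0386), and for Tnip1, a partner protein of TNFAIP3 (0.40, adjusted p = 0.0384). Cyld, a deubiquitinase that acts beside TNFAIP3, differed by 0.18 and Nfkbib by -0.09, and neither passed.

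**Figure D2:**
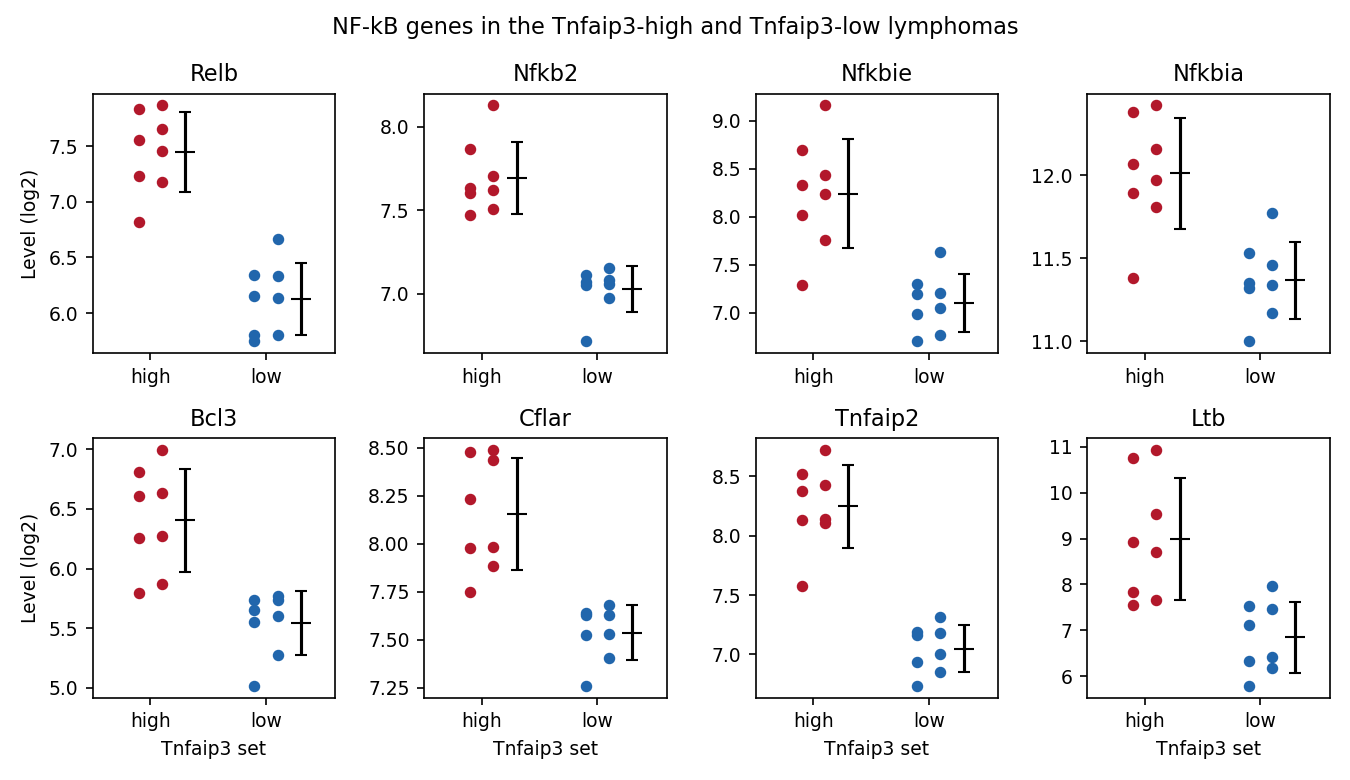
Level (log2, y axes, which do not start at 0) of 8 NF-kB genes in the 8 Tnfaip3-high (red, left) and 8 Tnfaip3-low (blue, right) lymphomas; each point is a tumour, and the bar gives the mean and SD. Relb, Nfkb2, Bcl3, Cflar and Tnfaip2 do not overlap between the sets, while Nfkbie, Nfkbia and Ltb do.

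The kinases and the receptors moved less. Of 10 kinase complex genes 1 was higher, Tab2 (0.37, adjusted p = 0.0368), which tethers the kinase MAP3K7 to ubiquitin chains and whose call was lost without most single tumours. Ikbkb, the kinase of the classical branch, differed by 0.07, and Map3k14, the kinase of the alternative branch, by -0.05. Of 33 receptors and adaptors 5 were higher and 0 lower. Tnfrsf1b, a TNF receptor of lymphocytes and myeloid cells, ranged from 7.54 to 8.53 in Tnfaip3-high and from 6.98 to 7.88 in Tnfaip3-low tumours (0.75, SE 0.16, adjusted p = 0.0148). Birc2, a ubiquitin ligase of TNF receptor complexes, ranged from 9.02 to 9.87 and from 8.54 to 9.33 (0.60, SE 0.13, adjusted p = 0.0143). Bcl10, an adaptor between the antigen receptor and the kinases, differed by 0.36 (adjusted p = 0.0264), and its call was lost without D26 or without D1. Ltbr, the lymphotoxin receptor that lymphocytes largely lack, differed by 0.74 (adjusted p = 0.0437), and Il1r1, the interleukin-1 receptor, by 0.60 (adjusted p = 0.0456); both calls were lost without most single tumours. Cd40, the receptor for T cell help on B cells, differed by -0.02 (adjusted p = 0.94).

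Of 56 known NF-kB target genes tested, 12 were higher and 1, the nuclear receptor gene Nr4a3, was lower (-0.30, adjusted p = 0.0418). Tnfaip2, a TNF-induced gene of myeloid cells and endothelium, ranged from 7.57 to 8.72 (median 8.26) in Tnfaip3-high tumours and from 6.73 to 7.32 (median 7.08) in Tnfaip3-low tumours. The sets did not overlap, and the difference of 1.20 (SE 0.14) had the smallest adjusted p of the list, 0.000417. Ltb, the lymphotoxin gene of B and T cells, had the largest difference, 2.14 (SE 0.51, adjusted p = 0.0212). It ranged from 7.55 to 10.93 and from 5.79 to 7.97, highest in D8, and the sets overlapped. Cxcl16, a chemokine of macrophages and dendritic cells, ranged from 7.55 to 8.49 and from 7.04 to 7.31 with no overlap (0.80, adjusted p = 0.00259). Cflar, which blocks death receptor caspases, ranged from 7.75 to 8.49 and from 7.26 to 7.68, also with no overlap (0.62, SE 0.11, adjusted p = 0.00893).

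Another 8 targets were higher. Tap1, the peptide transporter of MHC class I, ranged from 9.27 to 9.69 in Tnfaip3-high and from 8.70 to 9.20 in Tnfaip3-low tumours (0.60, SE 0.09, adjusted p = 0.00269), and Tapbp, which loads those peptides, from 10.40 to 11.28 and from 9.84 to 10.37 (0.51, adjusted p = 0.024). In neither gene did the sets overlap on these probe sets, and another of Tapbp differed by 0.18. Fas, a death receptor, rose by 0.44 (adjusted p = 0.0115) and Basp1 by 0.97 (adjusted p = 0.0163). The calls of Tgm2 (1.11), Csf1, the growth factor of macrophages (0.80), Ninj1 (0.69) and Pvr (0.50) were lost without most single tumours, and for Csf1 and Pvr another probe set differed by -0.01 and -0.003. Of the 56 targets 43 did not pass, among them Cd83, Icam1, Birc3, Cd86, Ccr7 and Irf4, picked here after their values were seen: Cd83 differed by 0.55 (adjusted p = 0.43), Icam1 by 0.39 (adjusted p = 0.080), Birc3 by 0.32, Cd86 by 0.34, Ccr7 by -0.27 and Irf4 by -0.28. Rgs1, which dampens chemokine receptors, did not overlap between the sets but missed the threshold (1.38, adjusted p = 0.0526), with D30 alone at 10.39 against a median of 6.95 in the high set.

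Macrophage genes rose in part. Of 28 macrophage genes tested 9 were higher and 0 lower, with a median difference of 0.75. Clec4n, a myeloid lectin receptor, ranged from 7.50 to 9.83 (median 8.68) in Tnfaip3-high tumours and from 5.67 to 7.45 (median 6.28) in Tnfaip3-low tumours, with no overlap (2.38, SE 0.32, adjusted p = 0.00135). Lyz2, a lysozyme of macrophages and neutrophils, ranged from 12.27 to 13.30 and from 10.09 to 11.85, also with no overlap (1.47, SE 0.24, adjusted p = 0.00443). Lyz1, its near-identical neighbour whose probes may read both, differed by 1.19 (adjusted p = 0.00918), and Apoe, a lipid carrier of macrophages, by 1.30 (adjusted p = 0.0163). Csf1r, the receptor that maintains macrophages, was added after its values were seen and differed by 1.19 (adjusted p = 0.0152), ranging from 9.90 to 11.77 and from 8.89 to 10.29.

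Not all macrophage genes shared this direction. Adgre1, the classical tissue macrophage marker, ranged from 5.70 to 9.75 (median 7.13) in Tnfaip3-high tumours and from 7.07 to 8.48 (median 8.12) in Tnfaip3-low tumours, and Mrc1, the mannose receptor, from 5.53 to 10.35 (median 6.89) and from 7.86 to 9.25 (median 8.79). These were also looked at after their values were seen, and neither passed (-0.33, adjusted p = 0.69, and -0.98, adjusted p = 0.32). The mean standardised level of the macrophage list ran from -0.58 to 2.38 (median 0.70) in the high set and from -1.04 to 0.09 (median -0.14) in the low set. D30 was the highest, and 2 of the 8 Tnfaip3-high tumours were below 0. Of 8 defining macrophage markers 7 were above the filter, and Vsig4 was below it. Of these 7, 2 were higher and 0 lower: Csf1r and C1qa (1.02, adjusted p = 0.0282, limma, named after its values were seen). The mean log2 level of the 7 had a median of 9.73 in the high set and 9.52 in the low set.

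Few dendritic cell and neutrophil genes passed. Itgax, an integrin of dendritic cells and macrophages, ranged from 5.59 to 7.41 in Tnfaip3-high and from 5.17 to 5.77 in Tnfaip3-low tumours (1.12, SE 0.23, adjusted p = 0.0139). Fscn1, an actin bundler of mature dendritic cells, differed by 1.43 (adjusted p = 0.0167), although another of its probe sets differed by -0.19. They were the 2 of 8 dendritic genes that passed, and 3 of 5 defining dendritic markers (Xcr1, Siglech and Cd209a) were below the filter. Of 12 neutrophil genes 1 passed, the formyl peptide receptor gene Fpr2 (1.05, adjusted p = 0.0229), with a list median of 0.68. That is 8.33% of the list, beside 4.83% of all genes, so this 1 call says little of neutrophil genes as a group. The neutrophil level ran from -0.45 to 0.63 in the high set and from -1.12 to 0.96 in the low set. The highest single value thus lay in a Tnfaip3-low tumour, D1.

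T cell genes were not a common feature of the Tnfaip3-high tumours. Of 12 tested 1 passed, Cd4 (1.01, SE 0.26, adjusted p = 0.0308), and its call was lost without each of 8 single tumours. Cd4 is also made by some dendritic cells and macrophages. The T cell receptor complex genes Cd3e (0.14) and Cd3g (0.56) did not pass; they were looked up after the values were seen. The T cell level of D9 was 2.20, while the Tnfaip3-high median was -0.28 against -0.36 in the low set. D9 was also highest for Relb, Nfkb2, Tnfaip2 and Birc2. Without D9 the genes that rose numbered 411. Of 6 natural killer and cytotoxic genes 0 passed (limma; 2 at an unadjusted p under 0.05), and D9 was the highest there too, at 2.27.

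**Figure D3:**
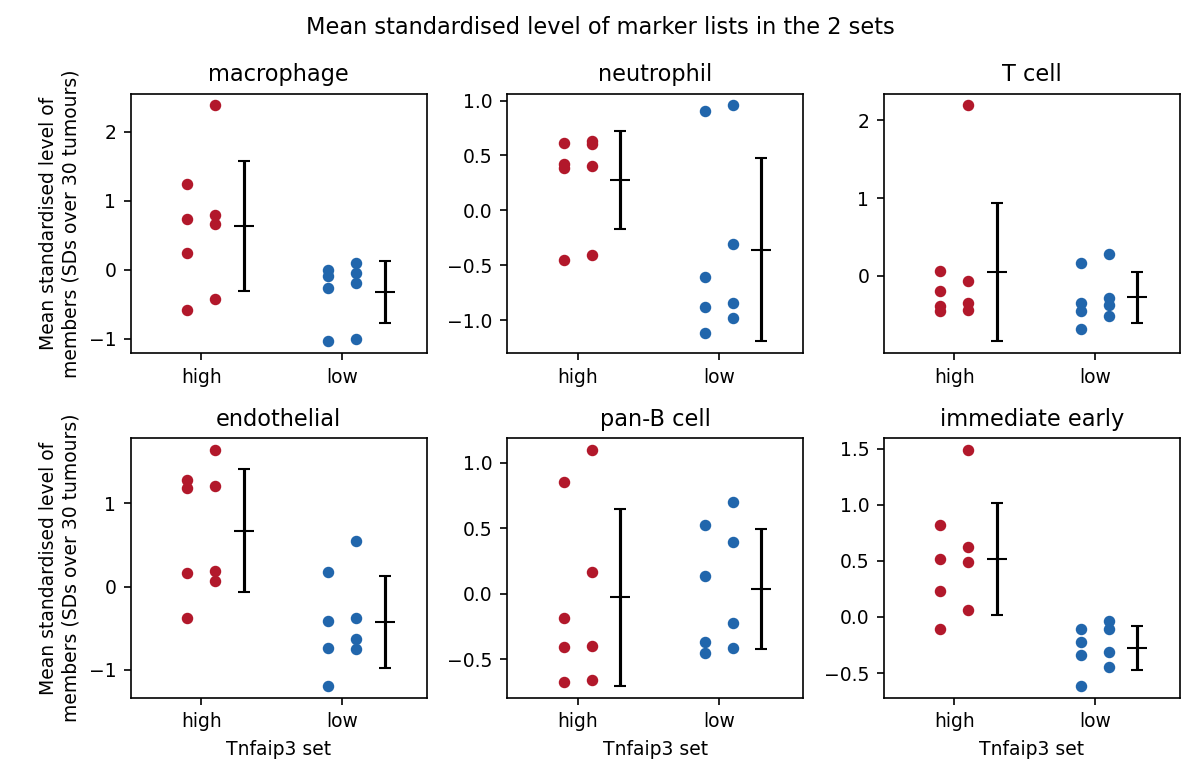
Mean standardised level (y axis, in SDs over the 30 ranked tumours) of 6 marker lists in the 8 Tnfaip3-high (red, left) and 8 Tnfaip3-low (blue, right) lymphomas; each point is a tumour and bars give the mean and SD. The macrophage, endothelial and immediate early lists sit higher in the high set with overlap, the T cell list is carried by D9 at 2.20, and the pan-B cell list does not separate the sets.

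Few endothelial and stromal genes passed. All 13 endothelial genes tested had a positive difference (median 0.63) and 3 passed. Pecam1, an adhesion protein of endothelium, platelets and myeloid cells, ranged from 7.80 to 9.02 in Tnfaip3-high and from 7.25 to 8.04 in Tnfaip3-low tumours (0.85, SE 0.16, adjusted p = 0.00862). Cdh5, the endothelial cadherin (0.72, adjusted p = 0.0447), and Tie1 (0.73, adjusted p = 0.0495) lost their calls without most single tumours. Of 16 stromal genes 2 passed, 10 had a positive difference and the median was 0.14; with the macrophage level as a covariate that median was -0.39. Cxcl13, the chemokine by which follicular stroma and some macrophages attract B cells, had the largest difference of all genes that passed, 3.46 (SE 0.77, adjusted p = 0.0169). It lay between 9.57 and 11 in 7 Tnfaip3-high tumours and at 6.70 in D25, while the Tnfaip3-low tumours ran from 4.33 to 9.48 in D27. Pdgfra, a fibroblast receptor, differed by 1.02 (adjusted p = 0.0143). The 10 salivary genes had a median difference of 2.92 and 0 passed (limma; also 0 at an unadjusted p under 0.05), and without the tumours with salivary transcripts that median was -0.13.

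Genes that mark B cells in general gave no call in either direction. Of 18 pan-B genes 0 passed (limma; 2 higher and 2 lower at an unadjusted p under 0.05), with a median difference of -0.06. Cd79a, the signalling chain of the B cell receptor, ranged from 10.96 to 11.63 (median 11.10) in Tnfaip3-high tumours and from 10.68 to 11.61 (median 11.14) in Tnfaip3-low tumours (0.01, adjusted p = 0.95), and Pax5, the B lineage regulator, differed by -0.04 (adjusted p = 0.93). Both were looked up after the values were seen. Mature B cell genes had a median of 0.72, yet 0 of 22 passed by limma. At an unadjusted p under 0.05, 10 of them were higher and 0 lower. With the macrophage level as a covariate 3 of the 22 were higher and 0 lower, with a median of 1.08. In that fit 1.92% of all genes were higher, and 0 of the 18 pan-B genes passed. Cd74, the chaperone of MHC class II, ranged from 11.96 to 13.24 and from 9.22 to 12.91 (1.10, adjusted p = 0.16), and Gimap4, a GTPase gene of mature lymphocytes, differed by 1.93 (adjusted p = 0.088). Precursor B cell genes had a median of 0.78 and 2 of 14 passed, Cd93 (1.21, adjusted p = 0.0444) and the stem cell factor receptor gene Kit (0.78, adjusted p = 0.0261, lost without D32 or D1). Rag1, a subunit of the enzyme that cuts antigen receptor genes, varied widely in each set, from 3.38 to 12.02 and from 3.62 to 10.64 (2.80, adjusted p = 0.16). Cd93 is also an endothelial and myeloid protein, and its call was lost without most single tumours. Levels of both maturity lists varied widely within each set, from -0.46 to 1.26 against -1.16 to 0.58 for the mature list. Of 26 genes of B cell receptor signalling 1 passed, Nfatc2 (0.81, SE 0.19, adjusted p = 0.0189). This calcium-activated factor did not overlap between the sets on that probe set, and another differed by -0.08. Of 9 plasma cell genes 1 passed, the chaperone gene Fkbp11, and it fell by 1.68 (adjusted p = 0.0279, lost without D26, D32 or D1). Another probe set of Fkbp11 differed by only -0.23.

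Immediate early genes, which switch on within minutes of a growth factor or antigen signal and also during tissue handling, rose in part. Of 26 tested 7 were higher and 0 lower, with a median of 0.51. Dusp6, a phosphatase that dampens ERK, ranged from 8.11 to 11.43 (median 10.85) in Tnfaip3-high and from 7.03 to 9.22 (median 7.81) in Tnfaip3-low tumours (2.48, SE 0.47, adjusted p = 0.00947). Egr1, a transcription factor that ERK induces, ranged from 7.80 to 11.42 and from 6.49 to 8.08 (2.14, SE 0.45, adjusted p = 0.0138). In both genes D10 was the lowest of the high set. It alone reached into the range of the low set for Egr1, and D25 joined it for Dusp6. Btg1, an antiproliferative gene, differed by 1.36 (adjusted p = 0.00918), and the phosphatase gene Dusp1 by 1.69 (adjusted p = 0.0264, lost without D1). Of 12 genes of Ras-ERK feedback 5 were higher and 0 lower: the transcription factor gene Etv5 (2.92, adjusted p = 0.0335), Dusp6, the ERK pathway inhibitor genes Spred1 (2.07, adjusted p = 0.021) and Spry1 (1.07, adjusted p = 0.0193, named after its values were seen), and the phosphatase gene Dusp4 (1.80, adjusted p = 0.0368). Etv5 and Dusp4 lost their calls without most single tumours.

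With the immediate early level as a covariate in the limma model, 1 gene was higher, Tfec (1.25, adjusted p = 0.0248; named after its values were seen), and 0 were lower, while 585 and 566 genes had an unadjusted p under 0.05. That level ran from -0.10 to 1.49 in the Tnfaip3-high and from -0.62 to -0.04 in the Tnfaip3-low tumours, so the covariate nearly separated the sets. Over the 30 ranked tumours its r with the macrophage level was 0.62 and with the NF-kB target level 0.82. All these levels were measured on the same arrays, and r is given as a description. Which tumours were frozen as tissue and which as dissociated cells is not given, and its part in these differences was not tested.

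MHC class I and interferon genes rose in part. Of 12 MHC class I genes 5 were higher and 0 lower, namely Tap1 and Tapbp above, the heavy chain genes H2-K1 (0.66, adjusted p = 0.0279, lost without D1) and H2-D1 (0.48, adjusted p = 0.0273), whose near-identical sequences probes may not tell apart, and the transporter gene Tap2 (0.38), named after its values were seen. H2-K1 ranged from 12.75 to 13.39 in the high set and from 11.39 to 12.77 in the low set, and D29 was the lowest. Of 23 interferon-induced genes 3 were higher: Gbp3, a guanylate-binding protein, ranged from 8.01 to 10.64 and from 6.79 to 7.73 with no overlap (1.35, SE 0.30, adjusted p = 0.0172), the nuclease gene Isg20 differed by 0.82 with no overlap (adjusted p = 0.00755), and Gbp2 differed by 1.09 (adjusted p = 0.0446, lost without most single tumours).

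Growth genes leaned the other way by small amounts. All 19 Myc targets tested had a negative difference, with a median of -0.24, and 5 of them fell, among them the spermidine synthase gene Srm (-0.60, adjusted p = 0.0493), the pyrimidine synthesis gene Cad (-0.46, adjusted p = 0.0384) and the nucleolar genes Nop56 (-0.45, adjusted p = 0.0144) and Rrp9 (-0.31, adjusted p = 0.0471). Nop56 kept its call without each tumour in turn, and Srm, Cad and Rrp9 lost theirs without most. Myc itself ranged from 10.39 to 11.78 (median 11.15) in Tnfaip3-high and from 11.20 to 12.20 (median 11.42) in Tnfaip3-low tumours (-0.38, adjusted p = 0.19; looked up after the values were seen). Of 16 oxidative phosphorylation genes 3 fell, led by Ndufa9 of respiratory complex I (-0.46, adjusted p = 0.0245). Of 22 proliferation genes 0 passed by limma, with 0 higher and 9 lower at an unadjusted p under 0.05. In the robust limma fit 0 were higher and 5 lower. All 22 had a negative difference (median -0.28). The 12 reference genes had a median of -0.004, whose sign turned to 0.02 when arrays were shifted by their mean; of all lists tested with at least 3 genes, it was the only one to turn under that shift or a repeated quantile normalization.

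**Figure D4:**
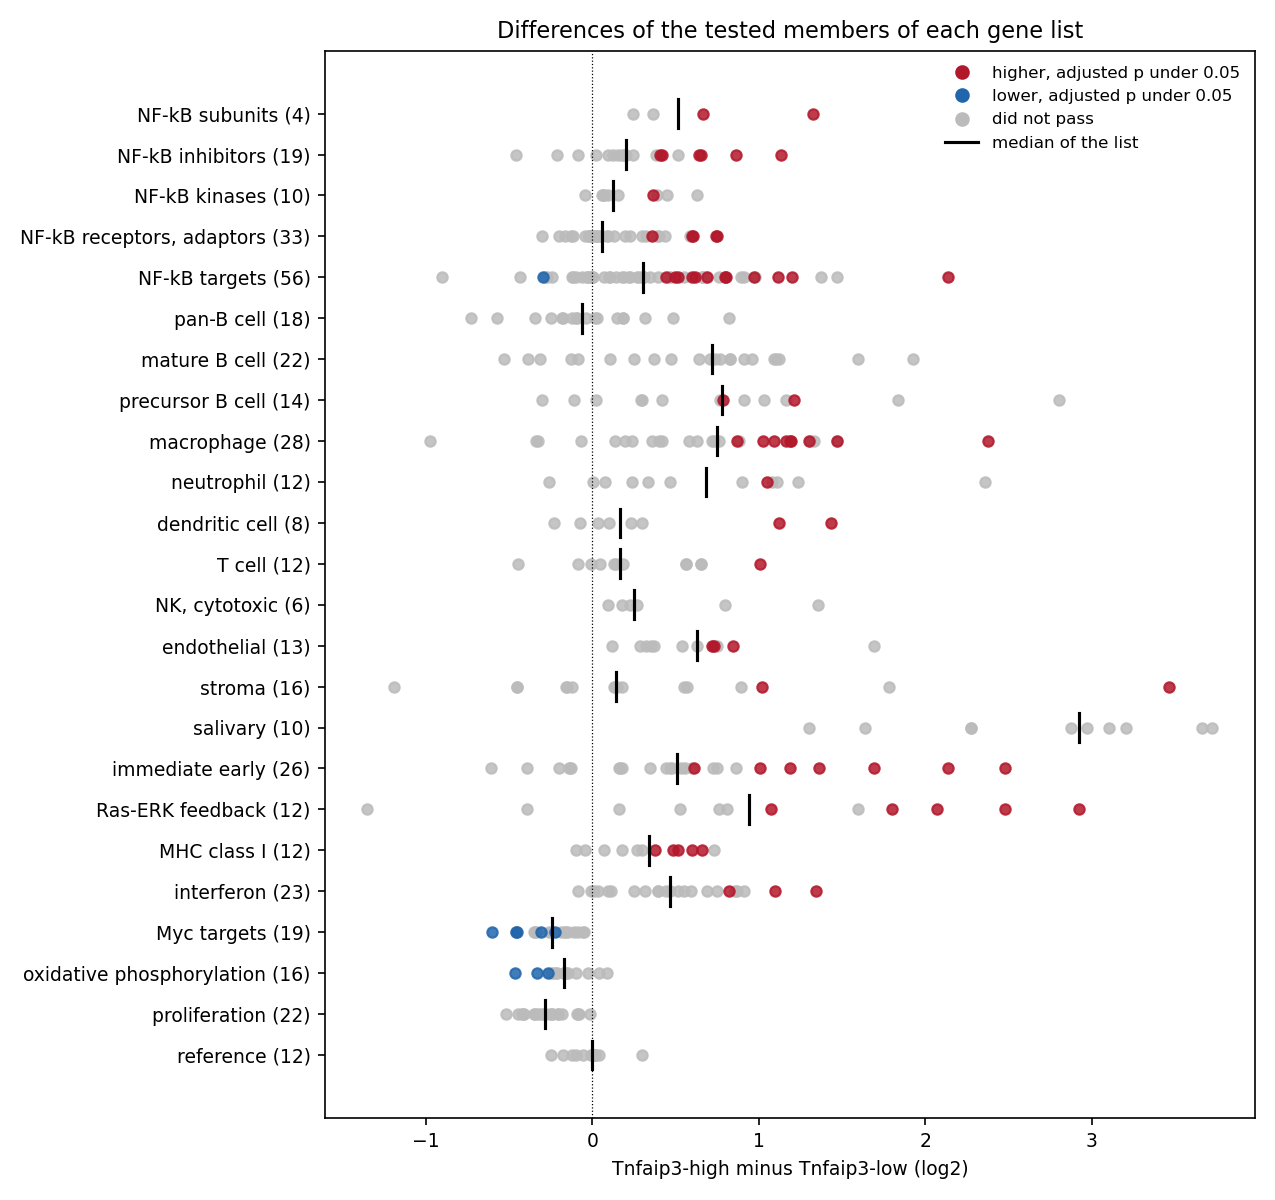
Difference (Tnfaip3-high minus Tnfaip3-low, log2, x axis) of every tested member of 24 gene lists (rows, with the number tested), in red where higher and in blue where lower at an adjusted p under 0.05, in grey otherwise; black bars are list medians. NF-kB, macrophage, immediate early, Ras-ERK and MHC class I rows hold most red points, Myc target and oxidative phosphorylation rows hold blue ones, and the pan-B, proliferation and reference rows hold neither.

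Of the 12 largest rises, Cxcl13 is on the stromal list, Dusp6 on the immediate early and Ras-ERK lists, Etv5 on the Ras-ERK list and Car2 on the erythroid list. After Cxcl13 came the desmosomal cadherin gene Dsc3, from 4.76 to 10.10 in Tnfaip3-high and from 4.05 to 5.05 in Tnfaip3-low tumours (3.07, SE 0.76, adjusted p = 0.0248). It was above 8 in D6, D8, D9, D15 and D18 and near 4.8 in D10, D25 and D30. The chromatin organiser gene Satb1 (3.02, adjusted p = 0.0199), the secreted chaperone gene Clu (3.02, adjusted p = 0.0101) and Lyve1, a receptor of lymphatic endothelium and some macrophages (3.0, adjusted p = 0.0115), followed. Tgfbi, a matrix protein made by macrophages and stroma, ranged from 8.81 to 10.52 (median 9.41) and from 5.77 to 8.71 (median 6.60) with no overlap (2.81, SE 0.38, adjusted p = 0.00135). The others of the 12 were Etv5 and Dusp6 above, the phospholipase gene Pla2g2d (2.67, adjusted p = 0.0283), Irs1, an adaptor of the insulin receptor (2.50, adjusted p = 0.0327), the carbonic anhydrase gene Car2 (2.44, adjusted p = 0.0248) and Phlda1 (2.40, adjusted p = 0.0261). Etv5, Pla2g2d, Irs1 and Clu were also highest in D6, D8, D9, D15 and D18. In D10, D25 and D30 Etv5 was 5.69, 5.65 and 6.64, and Pla2g2d 5.51, 6.68 and 7.40. Irs1 was 5.61, 6.86 and 5.77 there, and Clu 9.33, 9.02 and 9.87. The Tnfaip3-low tumours reached 8.33 for Etv5, 7.31 for Pla2g2d, 6.91 for Irs1 and 9.66 for Clu. The call of Irs1 was lost without any 1 of 9 tumours. That of Pla2g2d was lost without D18, D26, D32 or D1, and that of Phlda1 without D26 or D1.

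Of the 12 largest falls only Cenpv did not overlap, with 7.90 to 10.48 in Tnfaip3-high and 10.62 to 11.12 in Tnfaip3-low tumours (-1.36, SE 0.30, adjusted p = 0.0167). Hepacam2 had the largest decrease and fell by 2.99 (SE 0.82, adjusted p = 0.0354), ranging from 4.14 to 9.83 and from 8.05 to 11.78. The next were Nt5dc2 (-1.84), Cecr2 (-1.81), Fkbp11, Epop (-1.55), Tcam1 (-1.44), the leukotriene receptor gene Cysltr1 (-1.44), the proline dehydrogenase gene Prodh (-1.39), Tmem107 (-1.36), Arsi (-1.32) and Stxbp5 (-1.30). D10, D30 or both were often the high-set tumours nearest the low set, as for Hepacam2, Cenpv and Nt5dc2. The calls of Hepacam2, Cecr2, Cysltr1 and Stxbp5 were lost without most single tumours, that of Nt5dc2 without D8, D32 or D1, and that of Arsi without D18, D32 or D1.

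To set genes that track admixed macrophages apart from others, the macrophage level of each tumour was added to the limma model. Then 216 genes (1.92%) were higher and 88 (0.784%) lower. Of the 542 genes higher without it, 172 were also higher with it, and all 542 kept a positive difference, with a median of 0.69. Of the 470 lower genes 49 were also lower with it and all 470 kept their sign. The covariate takes up a degree of freedom and is itself higher in the high set. Fewer calls thus do not by themselves mark a gene as macrophage-derived. It is the mean of the macrophage list genes, so smaller differences of those genes are largely built in.

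Of the NF-kB genes, Relb (1.52, adjusted p = 0.00491), Nfkb2 (0.77, adjusted p = 0.00491), Nfkbie (1.5, adjusted p = 0.00491), Nfkbia (0.74, adjusted p = 0.0311), Birc2 (0.72, adjusted p = 0.0235), Ltb (2.94, adjusted p = 0.0104), Cflar (0.78, adjusted p = 0.00793), Tap1 (0.66, adjusted p = 0.00808), Tnfaip2 (1.05, adjusted p = 0.00575) and Cxcl16 (0.62, adjusted p = 0.0212) were higher with the covariate as well. In the first 8 of these the difference was larger with the covariate than without, and in Tnfaip2 and Cxcl16 it was smaller. The other 17 lost their call. Some had smaller differences with the covariate, such as Ltbr (0.27, adjusted p = 0.38), Ninj1 (0.34, adjusted p = 0.28) and Bcl3 (0.61, adjusted p = 0.082). In 4 the difference was larger: Bcl10 (0.42, adjusted p = 0.053), Csf1 (0.84, adjusted p = 0.11), Pvr (0.51, adjusted p = 0.12) and Tnip1 (0.41, adjusted p = 0.12). Cd83, at 0.55 without the covariate, was at -0.06 with it. With the T cell, macrophage and neutrophil levels together in the model 128 genes were higher and 58 lower, and Relb, Nfkb2, Nfkbie, Birc2, Cflar, Ltb, Tap1 and Tnfaip2 were among the higher ones.

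Read by correlation over the 30 ranked tumours, 137 of the 542 higher genes had r of at least 0.6 with the macrophage level, against 426 of all 11227. For the T cell level 7 of the 542 reached it, against 118 of all genes, for the neutrophil level 9 against 41, and for the pan-B level 0 against 96. For the immediate early level 231 of the 542 did, against 429 of all genes. Of the 470 lower genes 207 had r of -0.6 or below with it, against 546 of all. The genes that passed were picked on 16 of these 30 tumours, in sets whose macrophage and immediate early levels also differ. Larger shares than over all genes are thus partly built in for these levels. All these r are descriptions of levels measured on the same arrays, and the list members are among the genes counted.

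**Figure D5:**
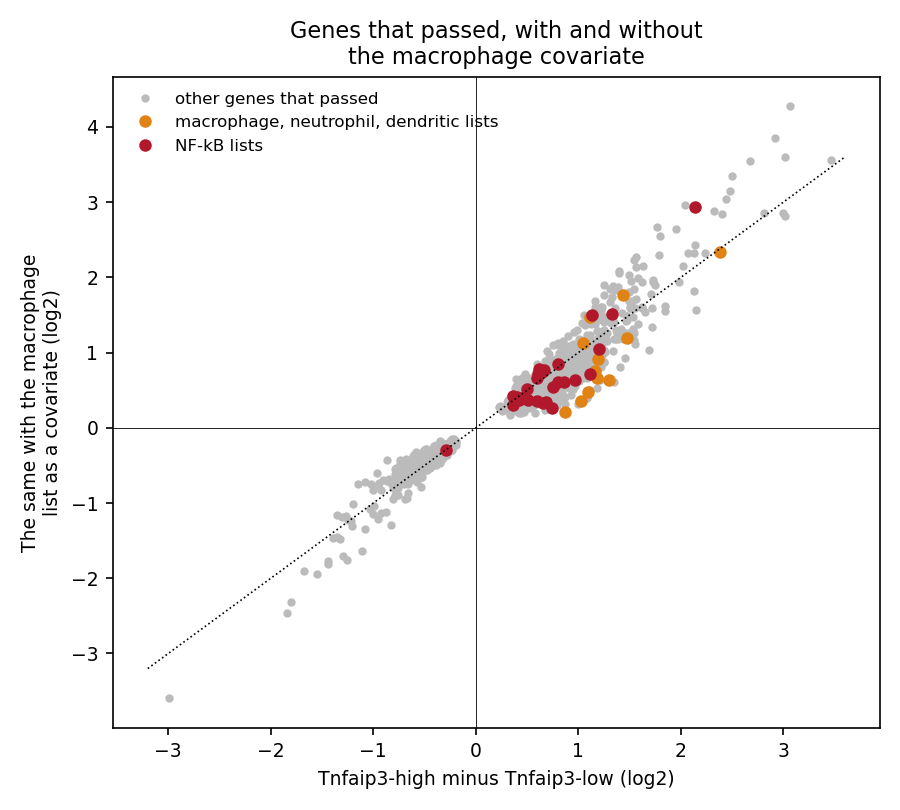
Difference of the 1012 genes that passed (Tnfaip3-high minus Tnfaip3-low, log2, x axis) against the same with the macrophage list level as a covariate (log2, y axis); the dotted line marks equal values, NF-kB genes are red and genes of the macrophage, neutrophil and dendritic lists are orange. All points keep their sign, several NF-kB genes lie on or above the line, and most macrophage genes lie below it. The macrophage genes make up the covariate, so their place below the line is largely built in.

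The genes whose levels followed Tnfaip3 most closely over the 30 ranked tumours were Plpp1, a lipid phosphatase (r = 0.90), Il13ra1, a chain of the interleukin-13 receptor (0.88), the amyloid precursor gene App (0.86), Bmp2k (0.86), Pecam1 (0.84), Tead1 (0.84), the matrix protease gene Mmp14 (0.83) and Ssh2 (0.83). This r is given as a description, since these are the highest of all genes and all levels were measured on the same arrays. Without D30 and D8, the tumours farthest from the median Tnfaip3 level, r lay between 0.78 and 0.88. Over the 14 tumours between the sets alone r lay between 0.14 (Mmp14) and 0.48 (App). Those tumours spanned only 0.51 of Tnfaip3, and so narrow a range lowers r by itself. The lower r thus cannot show whether the likeness rests on the tumours at the ends. Il13ra1 had the smallest adjusted p of the named genes, 0.000199, with 6.15 to 7.31 in Tnfaip3-high and 5.18 to 5.73 in Tnfaip3-low tumours and no overlap (1.26, SE 0.13). App did not overlap either, with 9.91 to 11.22 and 8.68 to 9.72 (1.25, SE 0.19). Il13ra1 and App were named for their r with Tnfaip3, over tumours that include those compared. The small adjusted p and the lack of overlap are thus largely built in.

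The 14 tumours between the sets were not used in the comparison, and they spanned only 0.51 of Tnfaip3. With their slope on Tnfaip3, 0 genes passed (limma), and 304 (2.71%) had an unadjusted p under 0.05. Of the 542 higher genes 424 (78.2%) had a positive slope there, against 46.6% of all genes, and 374 of the 470 lower genes (79.6%) had a negative one, against 53.4% of all. All 4 subunit genes tested had positive slopes (median 0.54), as had 25 of 26 immediate early genes and 22 of 28 macrophage genes. For 13 of the named genes that passed, the slope ran against the difference between the sets, among them Satb1, Irs1, Phlda1, Nfkbil1 and Gbp3, with negative slopes, and Hepacam2, with a positive one. Genes move together across tumours, so these shares have no test.

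Read against its name, the high set had higher Relb, Nfkb2, 6 of 19 inhibitors and 12 of 56 targets. Of macrophage genes 9 of 28, of endothelial genes 3 of 13 and of immediate early genes 7 of 26 were also higher, so the sets are called by their Tnfaip3 level here and not by NF-kB activity.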

How the data were processed

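Total RNA of 32 lymphomas was measured on Affymetrix Mouse430_2 arrays, 1 per tumour. The deposited log2 levels, 1 per probe set and array, came from RMA as the authors ran it (affy package, from the submitters' processing notes); its version is not given in the sources used here. RMA gives all arrays the same distribution, so a shift shared by most genes would not show. Array medians lay between 5.72 and 5.80, 0 pairs of arrays were identical, and precision is limited by the number of arrays. Depth has no meaning for arrays, and no batch is given in the sources used here.

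Of 45101 probe sets, 34958 had 1 gene symbol, 932 several and 9211 none, in the platform annotation; 34754 were matched to RefSeq genes by identifier. Only probe sets with 1 symbol were used. Those with a mean under the median of all probe set means (5.78) were left out, and the one with the highest mean stood for its gene, which left 11227 genes beside Tnfaip3. Other probe sets of the named genes that passed had the same sign in 73 of 77 cases. Some of these moved far less than the one used, such as 1 each of Satb1 (0.52 against 3.02), Tgm2 (0.10 against 1.11) and Ninj1 (0.06 against 0.69). Further probe sets of these genes came nearer to it. List members that no such probe set names are not analysed here.

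The Tnfaip3-high and Tnfaip3-low sets were compared with limma 3.58.1 in R 4.3.3 (lmFit, eBayes, two-sided, Benjamini-Hochberg adjusted p under 0.05). A list's level in a tumour is the mean of its genes' values, each standardised over the 30 ranked tumours. The method was tested on simulated data. Python 3.11.15, numpy 2.4.6, pandas 2.3.3 and matplotlib 3.10.9 were used for other steps. The members and lists were chosen with earlier results of these data known. Named genes were the 12 largest differences each way among genes that passed, members of the NF-kB lists, up to 4 members of each other list by size of difference, and the 8 genes with the highest r with Tnfaip3; others are said to have been added later. Alternatives were other filters, probe set means, 2 other scalings, other cuts of the ranking, slopes on Tnfaip3, covariates, a robust fit, and each tumour or the tumours with salivary transcripts left out.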

Additional observations from a re-analysis of the deposited data

Results flagged for a closer look

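A tumour stood apart from the other 7 of its set, with a gap to the nearest tumour that passed Dixon's 95% limit, in 26 of 262 sets of values examined for the genes and scores described here. Chance alone passes this limit in about 1 of 20 sets. Gene values are log2 levels, and scores are means of standardised levels. Among the 8 Tnfaip3-high tumours, D9 stood apart for Cd3e (highest, 7.48 against 6.38 in the nearest tumour), Cd3g (highest, 9.29 against 6.03 in the nearest tumour), the T cell score (highest, 2.20 against 0.06 in the nearest tumour), the cytotoxic and NK cell score (highest, 2.27 against 0.58 in the nearest tumour), the 3' minus 5' RNA quality measure (highest, 0.96 against 0.56 in the nearest tumour). Tumour D30 did so for Dusp1 (highest, 11.08 against 8.68 in the nearest tumour), Nfkbiz (highest, 8.61 against 7.78 in the nearest tumour), Rag1 (lowest, 3.38 against 8.04 in the nearest tumour), Rgs1 (highest, 10.39 against 7.41 in the nearest tumour). Tumour D25 did so for Cxcl13 (lowest, 6.70 against 9.57 in the nearest tumour), Gbp3 (highest, 10.64 against 9.25 in the nearest tumour). Tumour D10 did so for Mmp14 (lowest, 7.67 against 9.11 in the nearest tumour), Pvr (lowest, 6.14 against 6.74 in the nearest tumour). Among the 8 Tnfaip3-low tumours, D29 stood apart for Bcl6 (highest, 6.81 against 5.66 in the nearest tumour), Fkbp11 (lowest, 7.02 against 8.01 in the nearest tumour), H2-K1 (lowest, 11.39 against 12.18 in the nearest tumour), Nfkb2 (lowest, 6.72 against 6.98 in the nearest tumour), Prodh (highest, 10.38 against 9.12 in the nearest tumour), Spry1 (highest, 7.53 against 6.69 in the nearest tumour). For D19 the values were those of Irs1 (highest, 6.91 against 5.67 in the nearest tumour), the 3' minus 5' RNA quality measure (highest, 0.90 against 0.52 in the nearest tumour). For D27 the values were those of Etv5 (highest, 8.33 against 6.06 in the nearest tumour). For D1 the values were those of Pax5 (lowest, 7.29 against 7.88 in the nearest tumour). For D16 the values were those of Phlda1 (highest, 9.38 against 6.75 in the nearest tumour). For D14 the values were those of Rela (lowest, 9.17 against 9.66 in the nearest tumour). For D32 the values were those of Tgm2 (lowest, 6.76 against 7.82 in the nearest tumour). The part of any cause in these values was not tested.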

How the results depend on the processing

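Beside 542 higher and 470 lower genes, the count moved by over 1.5 times in at least 1 direction under these alternatives, and except where genes or tumours were taken away the cause was not tested. Keeping D2 and D24 in the ranking gave 877 higher and 1094 lower, a slope over all 30 tumours 1328 higher and 1828 lower, and a robust limma fit 946 higher and 1282 lower. A filter at the 75th percentile tested fewer genes and gave 244 higher and 355 lower. Counts were 216 higher and 88 lower with the macrophage score as a covariate, 294 higher and 245 lower with the neutrophil score, 128 higher and 58 lower with T cell, macrophage and neutrophil scores together, and 1 higher and 0 lower with the immediate early score (585 higher and 566 lower at an unadjusted p under 0.05). Without the salivary-high tumours, which left 3 against 6, 83 higher and 4 lower were called; the salivary state as a covariate, an alternative chosen after seeing the data, gave 264 higher and 82 lower. A slope over the 14 tumours between the sets called 0 higher and 0 lower by limma (179 higher and 125 lower at an unadjusted p under 0.05). Leaving out each tumour in turn gave 309 to 800 higher and 170 to 1074 lower genes. The other 11 alternatives kept both counts within 1.5 times. The sign turned in the slope over the 14 tumours for Satb1 -0.13, Irs1 -0.43, Phlda1 -0.53, Hepacam2 4.79, Cecr2 0.32, Fkbp11 0.31, Epop 0.034, Tcam1 0.99, Cysltr1 2.47, Nfkbil1 -0.13, Gbp3 -0.030, Rrp9 0.13, Bcl2l2 -1.01, and with the immediate early covariate for Cdh5 -0.029 (all log2). No paired analysis was possible because the labels give 1 group of tumours with no shared replicate numbers. The number of arrays limits the precision, low signals lie near background, and in bulk tumours admixed cells and expression per cell cannot be told apart.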

Other observations

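Of 14 tested genes of the Bcl2 family, which set the threshold for cell death, 2 were higher in the Tnfaip3-high tumours and 0 lower (limma, Benjamini-Hochberg adjusted p). Bcl2l2 ranged from 6.77 to 8.44 (median 7.81) in the Tnfaip3-high tumours and from 6.32 to 7.73 (median 6.78) in the Tnfaip3-low tumours, all on the log2 scale; this gene encodes a protector from cell death. The sets overlapped, and the difference was 0.94 (SE 0.22, adjusted p = 0.0193, limma). Bmf, a death-promoting member, differed by 1.27 (adjusted p = 0.0387, limma), and the call ended when any 1 of 11 of the 16 tumours was left out. Bcl2 itself differed by 0.61 and did not pass (adjusted p = 0.342, limma). Of 16 tested p53 targets 1 was higher and 0 lower: Sesn1, a stress response gene, differed by 0.87 (adjusted p = 0.0401, limma), and the call ended when any 1 of 13 of the 16 tumours was left out. Cdkn1a, a cell cycle inhibitor, differed by 0.68 and did not pass (adjusted p = 0.213, limma).

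Of 12 tested glycolysis genes 0 passed in either direction by limma, with 0 higher and 4 lower at an unadjusted p under 0.05 and 2 lower in the robust limma fit; the median difference was -0.19. Hk2 ranged from 7.42 to 9.38 (median 8.85) in the Tnfaip3-high tumours and from 9.09 to 9.82 (median 9.26) in the Tnfaip3-low tumours, for a hexokinase gene whose difference of -0.58 did not pass (adjusted p = 0.108, limma). Of 11 tested heat shock genes 0 were higher and 1 lower: Hspd1, a mitochondrial chaperone, differed by -0.39 (adjusted p = 0.0492, limma), and the call ended when any 1 of 14 of the 16 tumours was left out. Of 8 tested germinal centre genes 1 was higher, Basp1 (0.97, adjusted p = 0.0163, limma), which is also among the NF-kB targets listed. Bcl6, a regulator of germinal centre B cells, differed by 0.76 and did not pass (adjusted p = 0.0923, limma).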
